A study of Mus musculus with 16 samples.

Results

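A set of 39 genes of glycolysis, glucose and lactate transport, and the hypoxia response was followed by RNA-seq in mouse C17.2α cells. These are C17.2 neural cells from mouse cerebellum, engineered to overexpress the thyroid hormone receptor TRα1, so every group carried this transgene, the controls included. The cells grew in medium with charcoal-stripped newborn calf serum, received no thyroid hormone T3, and were lysed after 24 h in solvent (DMSO) or 1 of 4 strobilurins. Azoxystrobin was used at 1000 nM (its library at 100 nM is set aside below), and picoxystrobin, pyraclostrobin, and trifloxystrobin at 30, 100, 300 and 1000 nM, in 1 library per concentration against 2 DMSO libraries. In structure, azoxystrobin and picoxystrobin are methoxyacrylates, pyraclostrobin is a methoxycarbamate, and trifloxystrobin is an oximinoacetate.

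The members are a list of gene symbols, picked by name, but the list was drawn up with earlier results of these data known. Their shares against all genes may thus not be independent of these data. All 39 were found among the 54658 symbols of the count tables. A mean of 1 CPM or more (counts scaled to a common library total) was required for testing, and 36 of the 39 members passed, as did 14004 genes in all. Of the other members, Slc16a3, a lactate exporter of strongly glycolytic cells, and Ankrd37 lay between 0.23 and 1.43 CPM in the 15 libraries, and Adm was at most at 0.13 CPM. The tested members with the lowest levels were Bnip3, Pgam1, and Eno2. They lay between 1.33 and 5.13 CPM over the 15 libraries. Of the members, 30 averaged over 10 CPM.

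Glycolysis splits glucose in the cytosol to pyruvate, which mitochondria oxidize or lactate dehydrogenase turns into lactate. The genes of this pathway, and a set of genes for oxygen sensing and mitochondrial turnover, are classical targets of the hypoxia-inducible factors (HIFs), whose α subunits are hydroxylated by oxygen-dependent prolyl hydroxylases and then handed by the VHL protein to the proteasome. Strobilurins are fungicides that block complex III of the mitochondrial respiratory chain, a setting in which cells are known to rely more on glycolysis, and in which less oxygen is consumed.

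Total counts ranged from 12292390 to 18188099 over 15 distinct libraries. The azoxystrobin library at 100 nM held exactly the counts of the second DMSO library and was counted once, as DMSO. Which of the labels is right cannot be told from the files, so this control may be a treated library, and counts of called members without it are given with the comparisons against DMSO in which any member was called. The neural progenitor genes Nes, Sox2, and Vim were expressed, while Pax6 and the neuronal genes Rbfox3 and Syt1 stayed under 0.5 CPM. The other neuronal genes were expressed, Map2 between 107 and 159 CPM and Tubb3 between 11.7 and 30.2 CPM. Oligodendrocyte genes summed to between 1302 and 1673 CPM, and the microglial, endothelial, and erythroid markers were all under 0.5 CPM in every library. Of 4 markers of fibroblasts and mesenchyme, Thy1 stayed under 0.5 CPM, and with Col1a1, Col1a2, and Dcn they summed to between 5191 and 5871 CPM in DMSO and to between 2283 and 2573 CPM in the libraries of 300 and 1000 nM pyraclostrobin. The collagens Col1a1 and Col1a2 made up nearly all of this sum and were lower there. Dcn was not, at 23.4 and 33.3 CPM in DMSO and at 24.8 and 27.1 CPM at 300 and 1000 nM pyraclostrobin. The part of these markers in the results below was not tested. As all values are shares of a library, fewer cells with an RNA and less of it per cell cannot be told apart.

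In mouse, most of the members carry next to their start the core letters of the HIF binding site (ACGTG or GCGTG). Over the 250 bases before the RefSeq start (GRCm38.p6), one of these words or its reverse complement was found for 32 of the 36 members with a sequence, against 41.5% of the 27025 genes in the same table. Counted by windows of this length, it was 41 of 54, against 38.6% of all 32851. The genes of that table were not limited to expressed ones, as most members were, so these shares compare unlike sets. The words were present for 11 of 11 members that fell with pyraclostrobin at 300 and 1000 nM, for 4 of 4 that rose, and for 14 of the 18 not called that have a sequence, so most members of each group held them. To show the sites on both sides, the members with 1 window that fell most (Pfkl and Gapdh) and that rose most (Higd1a and Slc16a1) are printed in the sense of the gene, with each match in either direction in capitals, overlaps included. This choice was made after the values were seen, and a match of letters does not show that a HIF bound there.
Pfkl (chr10:78009808-78010057, minus strand): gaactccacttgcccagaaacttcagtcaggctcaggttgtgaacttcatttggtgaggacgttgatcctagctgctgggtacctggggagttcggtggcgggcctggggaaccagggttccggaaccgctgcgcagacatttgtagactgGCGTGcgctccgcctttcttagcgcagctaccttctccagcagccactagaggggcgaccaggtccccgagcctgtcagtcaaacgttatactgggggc
Gapdh (chr6:125165774-125166023, minus strand): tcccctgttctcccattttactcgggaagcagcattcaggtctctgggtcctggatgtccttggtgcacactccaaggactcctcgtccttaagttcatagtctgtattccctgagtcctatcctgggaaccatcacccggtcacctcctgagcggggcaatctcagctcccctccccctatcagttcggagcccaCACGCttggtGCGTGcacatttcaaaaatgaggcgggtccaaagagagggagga
Higd1a (chr9:121857797-121858046, minus strand): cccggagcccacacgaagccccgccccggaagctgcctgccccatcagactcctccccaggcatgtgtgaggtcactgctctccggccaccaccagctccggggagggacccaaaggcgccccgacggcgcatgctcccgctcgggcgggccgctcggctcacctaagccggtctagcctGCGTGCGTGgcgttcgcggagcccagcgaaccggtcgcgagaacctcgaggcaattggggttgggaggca
Slc16a1 (chr3:104638414-104638663, plus strand): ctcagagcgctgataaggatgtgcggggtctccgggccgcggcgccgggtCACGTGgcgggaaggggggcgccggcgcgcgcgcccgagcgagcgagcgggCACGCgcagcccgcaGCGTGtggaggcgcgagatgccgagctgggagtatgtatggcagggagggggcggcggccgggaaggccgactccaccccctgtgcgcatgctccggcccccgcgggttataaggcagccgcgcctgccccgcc

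**Figure D1:**
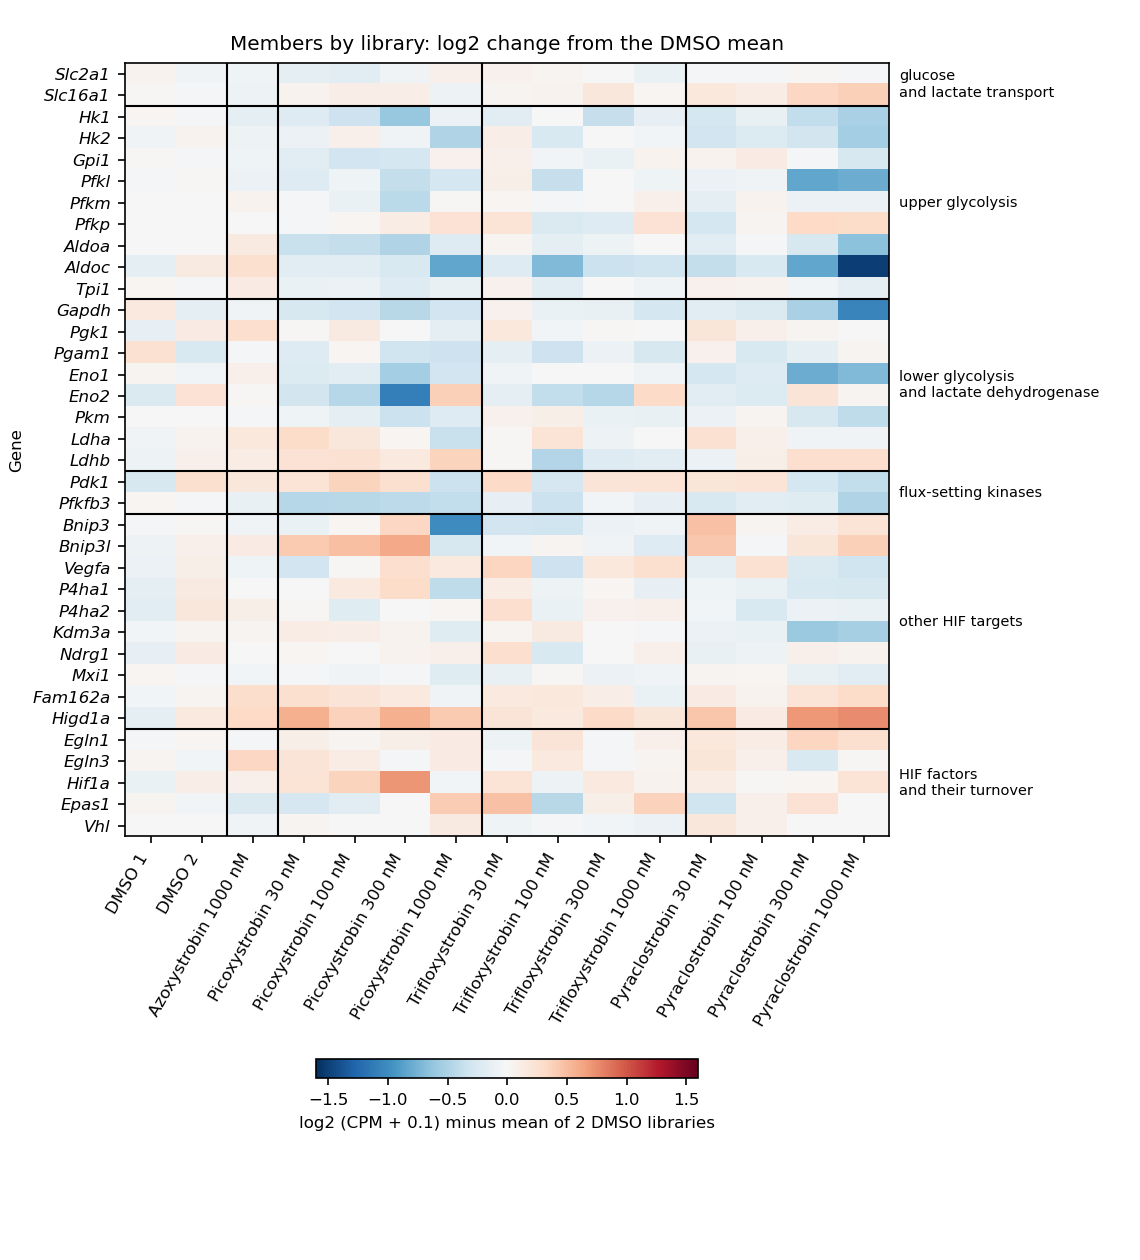
Each row is 1 of the 36 tested members, in 6 groups by role, and each column 1 of the 15 distinct libraries. The color gives the log2 change in CPM (plus 0.1) from the mean of the 2 DMSO libraries, blue for lower and red for higher. The darkest blue cell is Aldoc at 1000 nM pyraclostrobin (-1.51), and Pfkl, Eno1, and Kdm3a have their darkest blue in the last 2 columns, pyraclostrobin at 300 and 1000 nM.

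At 300 and 1000 nM pyraclostrobin, several glycolytic enzymes were lower than in DMSO. Aldoc, Pfkl, Gapdh, Eno1, Kdm3a, Hk1, Aldoa, Hk2, Pfkfb3, Pkm, and P4ha1 fell relative to DMSO, by between 0.26 and 1.15 on the log2 scale. Higd1a, Slc16a1, Egln1, and Fam162a rose, by 0.25 to 0.73. The glucose importer Slc2a1, Ldha, Pgk1, and Vegfa, which are textbook HIF targets, were not called. By the quasi-likelihood test of edgeR (adjusted p under 0.05 over all 14004 genes), 15 of 36 members were called, or 41.7%, next to a background of 40.3% of all genes. The share called was thus near that of all genes. By direction, 11 members were lower (30.6%, against 20.1% of all genes) and 4 higher (11.1%, against 20.2%). The median log2 fold change was -0.095 over the members and 0.0073 over all genes. Across genes, the change from DMSO was correlated with the GC content of the transcript (r = -0.187 at 300 nM and -0.306 at 1000 nM pyraclostrobin). With GC content and length corrected for, Hk2, Pkm, and Fam162a were among the members no longer called. The libraries of 300 and 1000 nM served as replicates of each other, and nothing says that the DMSO libraries came from separate cultures, so p-values measure only the spread between these libraries. Where members called with a library left out or joined are counted, here and below, the share of all genes is not given. The number called was 13 without the first DMSO library and 11 without the second, 14 without pyraclostrobin at 300 nM, and 9 without pyraclostrobin at 1000 nM.

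**Figure D2:**
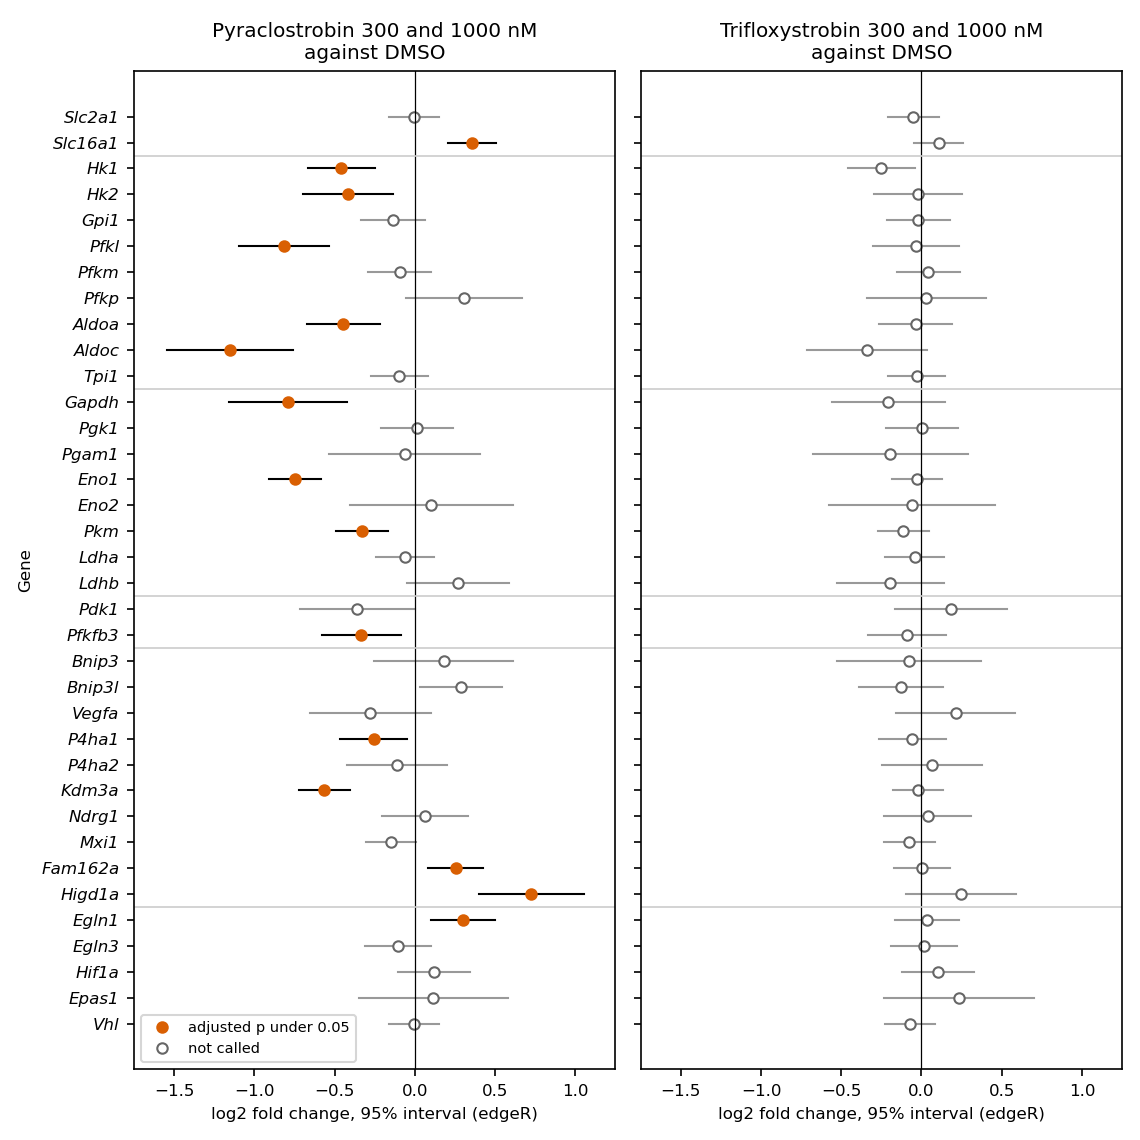
Log2 fold changes of the 36 members from DMSO with their 95% intervals (edgeR), at 300 and 1000 nM pyraclostrobin on the left and at the same concentrations of trifloxystrobin on the right. Filled points are called at an adjusted p under 0.05. On the left 11 filled points are below 0 and 4 above it, and on the right none is filled.

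Among the first steps of glycolysis, 5 of the 9 tested genes fell with pyraclostrobin at 300 and 1000 nM and none rose (20.1% and 20.2% of all genes did). Aldoc, the brain type of aldolase, changed most. Its level was 38.2 and 46.6 CPM in DMSO, 32.4, 35.7, 23.6 and 14.8 CPM at 30, 100, 300 and 1000 nM pyraclostrobin, 36.4, 25.8, 33.3 and 33.7 CPM at the same concentrations of trifloxystrobin, 37.7, 37.6, 35.8 and 23.6 CPM for picoxystrobin, and 50.5 CPM for azoxystrobin at 1000 nM. The 2 upper pyraclostrobin libraries were below all DMSO and trifloxystrobin libraries, but picoxystrobin at 1000 nM was as low as pyraclostrobin at 300 nM. The fall was 1.15 on the log2 scale (SE 0.183, edgeR adjusted p = 0.000253).

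Pfkl encodes the liver-type subunit of phosphofructokinase, the committing enzyme of glycolysis. It was at 26.3 and 26.9 CPM in DMSO and at 25.00, 25.7, 14.9 and 15.3 CPM with rising pyraclostrobin, so that the step lay between 100 and 300 nM. In trifloxystrobin the values were 28.4, 20.5, 26.5 and 25.4 CPM, in picoxystrobin 23.1, 25.4, 20.4 and 21.9 CPM, and in azoxystrobin 24.9 CPM. No other library was as low as the upper pyraclostrobin libraries (log2 fold change -0.81, SE 0.131, adjusted p = 0.000296). Its paralogues were not called. Pfkm, the muscle type, differed from DMSO by -0.094 (95% interval -0.29 to 0.10) and Pfkp, the platelet type, by 0.31 (-0.053 to 0.67). Exons of Pfkm and Pfkp overlap those of Senp1 and Pitrm1 on the other strand, which averaged 136 and 98.4 CPM, and whether the counting used the strand is not given in the sources used here, so these 2 values are uncertain.

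The hexokinases, which trap glucose in the cell, both fell. Hk1 was at 114 and 109 CPM in DMSO, 91.3, 102, 84.6 and 77.5 CPM in pyraclostrobin, 99.3, 112, 85.9 and 101 CPM in trifloxystrobin, 96.8, 88.7, 72.8 and 104 CPM in picoxystrobin, and 100.2 CPM in azoxystrobin. Among these, the lowest Hk1 value was that of picoxystrobin at 300 nM, and trifloxystrobin at 300 nM came close to pyraclostrobin at that concentration (log2 fold change with pyraclostrobin -0.46, SE 0.0972, adjusted p = 0.00204). With GC content and length corrected for, the change of Hk1 was -0.24 (edgeR adjusted p = 0.0349). Hk2, the inducible isoform, was at 22.2 and 24.2 CPM in DMSO, 18.7, 19.95, 18.9 and 15.9 CPM in pyraclostrobin, 24.97, 19.5, 23.2 and 22.5 CPM in trifloxystrobin, 21.7, 24.5, 22.3 and 16.6 CPM in picoxystrobin, and 21.9 CPM in azoxystrobin. Its lower values included pyraclostrobin at 30 nM and picoxystrobin at 1000 nM. The fall of Hk2 by 0.42 (SE 0.131, edgeR adjusted p = 0.0204) was not called without the second DMSO library (adjusted p = 0.117), without pyraclostrobin at 1000 nM (0.196), or with GC content and length corrected for (0.107).

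Aldoa, the main aldolase of most cells, was at 382 and 387 CPM in DMSO, 340.2, 380.1, 321 and 244 CPM in pyraclostrobin, 397, 349, 364 and 386 CPM in trifloxystrobin, 299.8, 296, 275 and 333 CPM in picoxystrobin, and 423 CPM in azoxystrobin. The 4 picoxystrobin libraries were all below DMSO as well. For pyraclostrobin at 300 and 1000 nM the log2 fold change was -0.45 (SE 0.107, adjusted p = 0.00459), and it was -0.26 (adjusted p = 0.0778) without the library at 1000 nM. The isomerases Gpi1 and Tpi1 were not called (-0.14 and -0.097). Gpi1 has a copy, Gm1840, with more counts than the gene itself.

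In the later steps, from glyceraldehyde phosphate to lactate, 3 of 8 genes fell and none rose, beside the same 20.1% and 20.2% of all genes. Eno1 encodes α-enolase, and had the smallest adjusted p of the members. It was at 88.2 and 83.5 CPM in DMSO, 70.5, 74.3, 49.6 and 52.7 CPM in pyraclostrobin, 82.2, 85.3, 85.8 and 82.8 CPM in trifloxystrobin, 73.9, 76.1, 58.9 and 69.1 CPM in picoxystrobin, and 90.9 CPM in azoxystrobin. Both upper pyraclostrobin libraries lay below every other library, with picoxystrobin at 300 nM next, while the trifloxystrobin libraries overlapped those of DMSO. The fall was 0.75 (SE 0.0748, adjusted p = 1.1e-05). Reads of Eno1 can fall on Eno1b, a near-identical copy that had almost as many counts, and with the counts of its copies added the fall was 0.68 (adjusted p = 1.45e-05).

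Gapdh, which oxidizes glyceraldehyde phosphate and is often taken as a stable reference, was at 11.9 and 9.56 CPM in DMSO, 9.39, 9.08, 7.38 and 5.07 CPM in pyraclostrobin, 11.2, 9.93, 9.78 and 8.77 CPM in trifloxystrobin, 8.88, 8.56, 7.805 and 8.62 CPM in picoxystrobin, and 10.3 CPM in azoxystrobin. These are low levels, and 90 near-identical copies of it (95% identity or more over 200 bases) together averaged 141 CPM. Exons of Gapdh also overlap those of Iffo1 on the other strand, which averaged 10.8 CPM. The Gapdh values thus carry the same uncertainty about the strand as those of Pfkm and Pfkp. Pyraclostrobin at 1000 nM had the lowest value (log2 fold change over both upper libraries -0.79, SE 0.173, adjusted p = 0.00246). With the copies added, the fall was smaller, 0.30 (adjusted p = 0.0201), and the gene and its copies cannot be told apart in these tables.

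Pkm, the pyruvate kinase, fell by 0.33 (SE 0.0748, edgeR adjusted p = 0.00313), a call that was lost without pyraclostrobin at 1000 nM (adjusted p = 0.0512) and with GC content and length corrected for (0.0555). Pgk1, Pgam1, and Eno2 were not called. Pgam1 has a copy, Pgam1-ps2, with more counts than the gene itself, and the sum of both fell by 0.39 (adjusted p = 0.0314).

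Lactate dehydrogenase, which ends the pathway, was not called. Ldha, the subunit that favors lactate, was at 354 and 385 CPM in DMSO, 437, 392, 354 and 354 CPM in pyraclostrobin, 374, 430.2, 350.4 and 367 CPM in trifloxystrobin, 454, 418, 378 and 288 CPM in picoxystrobin, and 415 CPM in azoxystrobin. Both upper pyraclostrobin libraries were as low as the first DMSO library, picoxystrobin at 1000 nM was the lowest of all, and the 95% interval of the log2 fold change, -0.25 to 0.12, did not reach the change of Pfkl or Eno1. Ldhb, the subunit that favors pyruvate, was at 8.97 and 9.97 CPM in DMSO, 8.89, 10.1, 11.4 and 11.4 CPM in pyraclostrobin, 9.62, 6.79, 8.18 and 8.38 CPM in trifloxystrobin, 11.1, 11.2, 10.6 and 12.1 CPM in picoxystrobin, and 10.3 CPM in azoxystrobin. Pyraclostrobin at 300 and 1000 nM was above all DMSO and trifloxystrobin libraries, though not called (0.27, SE 0.149, adjusted p = 0.16).

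Of the transport genes, the importer was not called and the lactate carrier rose. Slc2a1, the GLUT1 glucose importer, was at 81.5 and 75.3 CPM in DMSO, 77.6, 77.7, 79.6 and 76.5 CPM in pyraclostrobin, 82.1, 80.4, 78.5 and 73.00 CPM in trifloxystrobin, 70.7, 69.8, 75.2 and 82.9 CPM in picoxystrobin, and 74.9 CPM in azoxystrobin. All 4 pyraclostrobin libraries lay between the DMSO libraries, and the log2 fold change had a 95% interval of -0.16 to 0.15 for 300 and 1000 nM. Slc16a1, the MCT1 carrier that moves lactate and pyruvate across the membrane, was at 183 and 178 CPM in DMSO, 202, 196, 227 and 234 CPM in pyraclostrobin, 185, 187, 204 and 185 CPM in trifloxystrobin, 187, 194, 194 and 171 CPM in picoxystrobin, and 171 CPM in azoxystrobin. The 2 upper pyraclostrobin libraries were the highest of all 15, and Slc16a1 rose by 0.36 (SE 0.0712, edgeR adjusted p = 0.00134). This call held without any 1 of the 4 libraries compared, and the rise was 0.23 with GC content and length corrected for.

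Of the kinases that set the flux, Pfkfb3 makes the activator of phosphofructokinase and Pdk1 restrains the oxidation of pyruvate in the mitochondria. Pfkfb3 was at 24.96 and 23.9 CPM in DMSO, 20.6, 21.6, 21.4 and 17.4 CPM in pyraclostrobin, 22.2, 19.3, 23.7 and 22.2 CPM in trifloxystrobin, 17.8, 18.01, 18.2 and 18.6 CPM in picoxystrobin, and 22.4 CPM in azoxystrobin. All treated libraries were below both DMSO libraries, those of picoxystrobin and pyraclostrobin at 1000 nM by most. The fall of 0.34 at 300 and 1000 nM pyraclostrobin (SE 0.115, adjusted p = 0.0311) was not called without either DMSO library (edgeR adjusted p = 0.133 and 0.0694), without the library at 1000 nM (0.302), or with DESeq2 (0.0865).

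Pdk1 was at 27.1 and 38.4 CPM in DMSO, 36.8, 37.6, 26.6 and 24.5 CPM in pyraclostrobin, 39.9, 26.8, 37.1 and 37.4 CPM in trifloxystrobin, 37.7, 41.2, 38.7 and 25.3 CPM in picoxystrobin, and 36.7 CPM in azoxystrobin. The DMSO libraries themselves lay apart, and 5 libraries were low, namely the first DMSO library, trifloxystrobin at 100 nM, picoxystrobin at 1000 nM, and both upper pyraclostrobin libraries. Against DMSO the change at 300 and 1000 nM pyraclostrobin was not called (-0.36, SE 0.168, edgeR adjusted p = 0.102), but it was called without the first DMSO library (-0.59, adjusted p = 0.0234), and without the second it was -0.083.

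**Figure D3:**
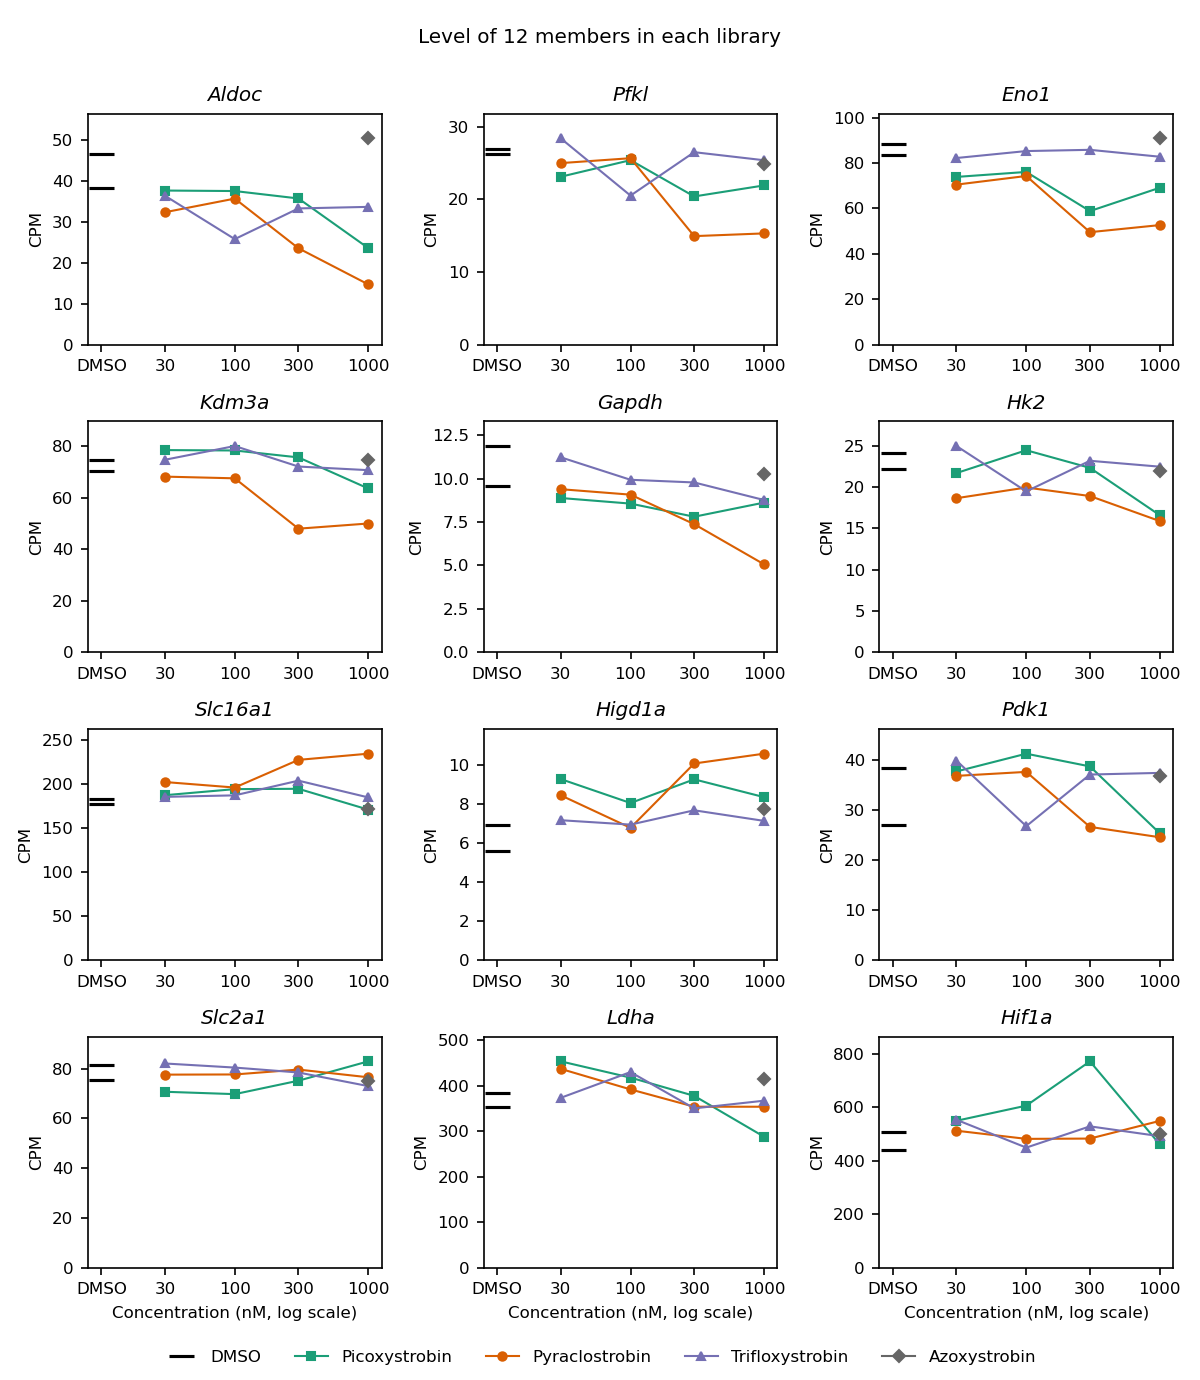
CPM of 12 members in each of the 15 libraries, against concentration in nM on a log scale. Black bars are the 2 DMSO libraries and each colored point is 1 library. Pfkl, Eno1, Kdm3a, and Gapdh are lowest, and Slc16a1 and Higd1a highest, in the libraries of 300 and 1000 nM pyraclostrobin, the DMSO libraries lie apart for Pdk1 (27.1 and 38.4 CPM), and Hif1a is highest at 300 nM picoxystrobin (772 CPM).

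Among the 10 other HIF targets that could be tested, Kdm3a and P4ha1 fell with 300 and 1000 nM pyraclostrobin and Fam162a and Higd1a rose, so the targets did not share a direction. Both counts were near the share of all genes, of which 20.1% fell and 20.2% rose. Kdm3a, a histone H3K9 demethylase, was at 70.3 and 74.9 CPM in DMSO, 68.3, 67.6, 48.1 and 50.1 CPM in pyraclostrobin, 74.8, 80.2, 72.2 and 70.8 CPM in trifloxystrobin, 78.6, 78.4, 75.7 and 63.7 CPM in picoxystrobin, and 74.9 CPM in azoxystrobin. The 2 upper pyraclostrobin libraries stood below all 13 others (log2 fold change -0.57, SE 0.0745, adjusted p = 6.83e-05). Higd1a encodes a small protein of the inner mitochondrial membrane that acts on the respiratory chain. It was at 5.57 and 6.92 CPM in DMSO, 8.46, 6.79, 10.1 and 10.6 CPM in pyraclostrobin, 7.18, 6.95, 7.69 and 7.14 CPM in trifloxystrobin, 9.29, 8.06, 9.28 and 8.36 CPM in picoxystrobin, and 7.75 CPM in azoxystrobin. Its highest values were the upper pyraclostrobin libraries, followed by picoxystrobin at 30 and 300 nM, and of the treated libraries pyraclostrobin at 100 nM alone was not above both DMSO libraries. Higd1a rose by 0.73 (SE 0.153, adjusted p = 0.00198), and by 0.67 with the counts of its copy Gm9790 added.

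The remaining calls in this group were small. Fam162a, linked to apoptosis in hypoxia, rose by 0.25 (SE 0.0808, edgeR adjusted p = 0.0218), and by only 0.031 (adjusted p = 0.755) with GC content and length corrected for. It was also not called without the first DMSO library (adjusted p = 0.133) or without pyraclostrobin at 1000 nM (0.138). P4ha1, a collagen prolyl hydroxylase, fell by 0.26 (SE 0.0978, adjusted p = 0.0483), with DMSO libraries at 253 and 307 CPM. Its call was lost without the second DMSO library (log2 fold change -0.11, adjusted p = 0.447), without pyraclostrobin at 300 nM (0.125), and without pyraclostrobin at 1000 nM (0.168).

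Vegfa, the angiogenic growth factor, was at 45.6 and 52.02 CPM in DMSO, 43.96, 57.5, 41.4 and 39.2 CPM in pyraclostrobin, 61.7, 38.7, 54.9 and 58.3 CPM in trifloxystrobin, 39.5, 49.3, 58.7 and 54.5 CPM in picoxystrobin, and 46.6 CPM in azoxystrobin. Trifloxystrobin alone spanned from the lowest to the highest of these values, with no order by concentration, and no change was called. Bnip3, a receptor of mitophagy, was at 2.73 and 2.81 CPM in DMSO, 3.86, 2.86, 3.03 and 3.25 CPM in pyraclostrobin, 2.21, 2.21, 2.58 and 2.66 CPM in trifloxystrobin, 2.58, 2.84, 3.52 and 1.33 CPM in picoxystrobin, and 2.66 CPM in azoxystrobin. These rest on 21 to 62 counts per library. Picoxystrobin at 1000 nM was the lowest, and pyraclostrobin was not called. Bnip3l, P4ha2, Ndrg1, and Mxi1 were not called for pyraclostrobin against DMSO either, with log2 fold changes of 0.29, -0.11, 0.064, and -0.15.

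Of the HIF factors and the genes that turn them over, 1 of 5 was called at 300 and 1000 nM pyraclostrobin, against 40.3% of all genes. Hif1a, the oxygen-regulated subunit of HIF-1, was at 442 and 509 CPM in DMSO, 513, 482, 483 and 549 CPM in pyraclostrobin, 553, 449, 529 and 492 CPM in trifloxystrobin, 549.8, 606, 772 and 462 CPM in picoxystrobin, and 501 CPM in azoxystrobin. Picoxystrobin at 300 nM stood highest and that at 100 nM next, while the upper pyraclostrobin libraries were within or near the DMSO range. Epas1, which encodes HIF-2α, was at 19.3 and 18.1 CPM in DMSO, 14.99, 19.8, 22.1 and 18.6 CPM in pyraclostrobin, 26.04, 13.7, 19.99 and 24.1 CPM in trifloxystrobin, 15.5, 16.6, 18.7 and 24.8 CPM in picoxystrobin, and 15.9 CPM in azoxystrobin. It ranged as widely within trifloxystrobin as over all libraries and was not called. Since HIF-α subunits are regulated by protein turnover, their transcript levels do not measure HIF activity.

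Vhl, which marks hydroxylated HIF-α for degradation, was at 63.2 and 62.3 CPM in DMSO, 71.3, 66.6, 62.4 and 62.6 CPM in pyraclostrobin, 59.9, 61.9, 60.7 and 58.97 CPM in trifloxystrobin, 64.6, 62.8, 63.1 and 69.6 CPM in picoxystrobin, and 60.2 CPM in azoxystrobin. At 300 and 1000 nM pyraclostrobin its 95% interval was -0.16 to 0.15. Egln3, a HIF prolyl hydroxylase that HIF itself induces, was at 70.9 and 66.6 CPM in DMSO, 78.7, 72.9, 58.01 and 69.7 CPM in pyraclostrobin, 67.5, 76.9, 67.9 and 70.99 CPM in trifloxystrobin, 79.4, 74.3, 67.2 and 75.2 CPM in picoxystrobin, and 86.2 CPM in azoxystrobin, with no call. Egln1, the main HIF prolyl hydroxylase, was the only gene of this group called, and rose by 0.30 (SE 0.0928, edgeR adjusted p = 0.0191). Without the first or the second DMSO library, or without pyraclostrobin at 300 nM, its call was lost (adjusted p = 0.107, 0.0513, and 0.105).

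The levels can also be set against DMSO and trifloxystrobin at 30 to 1000 nM together. Both upper pyraclostrobin libraries lay below all 6 DMSO and trifloxystrobin libraries for 13 of the 36 members (36.1%, against 23.4% of all genes tested) and above all of them for 8 (22.2%, against 24.1%). Besides called genes, Pfkm, Pdk1, and Mxi1 were on the lower side, and Pfkp, Ldhb, Bnip3, and Bnip3l on the upper side.

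Compared to 30 and 100 nM, pyraclostrobin at 300 and 1000 nM gave lower levels of Pfkl, Aldoc, Kdm3a, Eno1, Pdk1, Gapdh, Aldoa, and Pkm, and a higher level of Slc16a1. These 9 called members are 25% of those tested, with 21.7% of all genes as the background, and 8 of the 9 were lower (22.2%, against 10.6% of all genes). The largest differences were those of Aldoc (-0.83, SE 0.187, edgeR adjusted p = 0.00621) and Pfkl (-0.74, SE 0.134, adjusted p = 0.00172), followed by Gapdh (-0.58), Pdk1 (-0.54), Eno1 (-0.50), and Kdm3a (-0.47). Without pyraclostrobin at 100 nM, or without that at 1000 nM, 3 members were called by this test, and 5 without that at 30 nM. This comparison and that with DMSO share the upper libraries and are not independent. The single rise, that of Slc16a1, compares with 11.1% of all genes higher.

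For trifloxystrobin no such step was called. Between its upper and lower concentrations, 0 of the 36 members and 0% of all genes were called by edgeR, with 1 member at an unadjusted p under 0.05 (Pkm, -0.19) and 0 members called by DESeq2. The change from lower to upper concentrations was then compared between pyraclostrobin and trifloxystrobin directly. It differed for 4 members (11.1%, against 9.07% of all genes, of which 4.63% higher and 4.43% lower), all lower, which were Aldoc (-0.95, SE 0.259, adjusted p = 0.0344), Pfkl (-0.84, SE 0.185, adjusted p = 0.0148), Eno1 (-0.51, SE 0.105, adjusted p = 0.0109), and Kdm3a (-0.35, SE 0.105, adjusted p = 0.0499). By this test 0 members were called without pyraclostrobin at 100 nM or without trifloxystrobin at 300 nM, 1 without pyraclostrobin at 1000 nM, and 2 without pyraclostrobin at 30 nM or trifloxystrobin at 1000 nM. Without trifloxystrobin at 30 nM 6 were called.

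Against DMSO, trifloxystrobin gave no call among the members. At 300 and 1000 nM, where 0.00714% of all genes were called by edgeR, the log2 fold changes of the members ranged from -0.34 to 0.25, with 1 member at an unadjusted p under 0.05 (Hk1, -0.25) and 0 called by DESeq2. Over its 4 concentrations, 0 members and 0% of all genes were called by edgeR, with 0 members at an unadjusted p under 0.05 and 0 called by DESeq2. The 95% intervals at 300 and 1000 nM were -0.18 to 0.13 for Eno1, -0.30 to 0.23 for Pfkl, -0.18 to 0.13 for Kdm3a, and -0.71 to 0.033 for Aldoc, the widest of these.

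The compounds were compared in 3 pairs at 300 and 1000 nM, with p-values adjusted over all genes and pairs together. Pyraclostrobin against trifloxystrobin, the methoxycarbamate against the oximinoacetate, gave lower levels of Aldoc (-0.81, SE 0.185, edgeR adjusted p = 0.00937), Pfkl (-0.78, SE 0.132, adjusted p = 0.00158), Eno1 (-0.72, SE 0.0749, adjusted p = 7.53e-05), and Kdm3a (-0.54, SE 0.0746, adjusted p = 0.000411). It also gave lower levels of Gapdh, Pdk1, and Aldoa, and higher levels of Higd1a (0.48), Bnip3l (0.41), and Slc16a1 (0.25). These 10 members are 27.8% of the 36, near the 24.9% of all genes, with 7 lower (19.4%, against 12.5%) and 3 higher (8.33%, against 12.4%). No difference was called for Ldha, Slc2a1, Hif1a, or Vhl, whose 95% intervals were -0.20 to 0.16, -0.11 to 0.20, -0.21 to 0.24, and -0.093 to 0.22. The number called fell to 3 without pyraclostrobin at 1000 nM, to 4 without trifloxystrobin at 1000 nM, and to 6 without trifloxystrobin at 300 nM. Over all 4 concentrations, with the concentration as a block, 0 members differed (6 at an unadjusted p under 0.05), and -0.47 was found for Eno1.

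Pyraclostrobin against picoxystrobin, the methoxycarbamate against a methoxyacrylate, differed for 5 members (13.9%, against 14.1% of all genes, of which 7.13% higher and 6.99% lower). Aldoc (-0.61, SE 0.187, adjusted p = 0.0426), Kdm3a (-0.50, SE 0.0747, adjusted p = 0.00071), Pfkl (-0.48), and Eno1 (-0.32) were lower with pyraclostrobin, and Slc16a1 was higher (0.34, SE 0.0712, adjusted p = 0.00575). With picoxystrobin at 1000 nM left out, so that 300 nM alone stood for that compound, 8 members were called, and Pfkl and Eno1 were not among them (adjusted p = 0.0625 and 0.116). Without picoxystrobin at 300 nM 8 were called as well, and the difference of Aldoc was -0.31 (edgeR adjusted p = 0.376). Without pyraclostrobin at 1000 nM, 2 members were called by edgeR, and with the concentration as a block over all 4 concentrations, 0 were (2 at an unadjusted p under 0.05).

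Picoxystrobin against trifloxystrobin differed for Eno1 alone among the members (-0.40, SE 0.0743, adjusted p = 0.00269), or 2.78%, against 4.38% of all genes (2.12% higher and 2.26% lower). The 95% intervals of this pair were -0.57 to -0.02 for Pfkl, -0.59 to 0.18 for Aldoc, and -0.20 to 0.12 for Kdm3a. Without picoxystrobin at 1000 nM the same test called 8 members, and without picoxystrobin at 300 nM it called 3. In the block over 4 concentrations 0 members differed (5 at an unadjusted p under 0.05).

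With picoxystrobin, Hif1a was among the genes that rose. At 30 to 300 nM against DMSO, Bnip3l, a mitophagy receptor (0.50, SE 0.12, edgeR adjusted p = 0.0129), and Hif1a (0.44, SE 0.129, adjusted p = 0.0299) rose, while Pfkfb3 (-0.44, SE 0.113, adjusted p = 0.0175) and Aldoa (-0.41, SE 0.129, adjusted p = 0.04) fell. Bnip3l was at 70.5 and 79.4 CPM in DMSO and 99.6, 104, 114 and 62.4 CPM at 30, 100, 300 and 1000 nM picoxystrobin, so that the library at 1000 nM lay below DMSO. The 4 calls are 11.1% of the members, against 19.2% of all genes, and each direction holds 5.56%, against 9.13% of all genes higher and 10.0% lower. In these 3 libraries the change from DMSO was correlated across genes with the GC content of the transcript (r = -0.529, -0.603, and -0.669 at 30, 100 and 300 nM), and with GC content and length corrected for, none of the 4 members was called by edgeR (0.18 for Hif1a and 0.24 for Bnip3l). None was called without the first DMSO library or without picoxystrobin at 300 nM, and 1 without the second DMSO library.

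The libraries with no replicate, picoxystrobin and azoxystrobin at 1000 nM, can only be compared with the DMSO mean, with no test. At 1000 nM azoxystrobin no member of the 36 was over 1.5-fold higher or lower than DMSO (1.44% and 1.46% of all genes were). At 1000 nM picoxystrobin 2 members, Aldoc and Bnip3, were over 1.5-fold lower and none was higher (4.49% and 5.29% of all genes). That library stood closer to DMSO than picoxystrobin at 30 to 300 nM for Hif1a and Bnip3l, and its change from DMSO was correlated with GC content in the other direction (r = 0.165). When it was joined to the other picoxystrobin libraries, 0 members were called for picoxystrobin, and 10 in place of 15 for pyraclostrobin at 300 and 1000 nM. Over its 4 concentrations together, pyraclostrobin gave 1 call, Eno1 (-0.48, SE 0.14, edgeR adjusted p = 0.0473), against 8.60% of all genes (3.35% higher and 5.25% lower). It was lost without either DMSO library or either upper pyraclostrobin library, and 6 and 9 members were called without pyraclostrobin at 30 or at 100 nM.

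**Figure D4:**
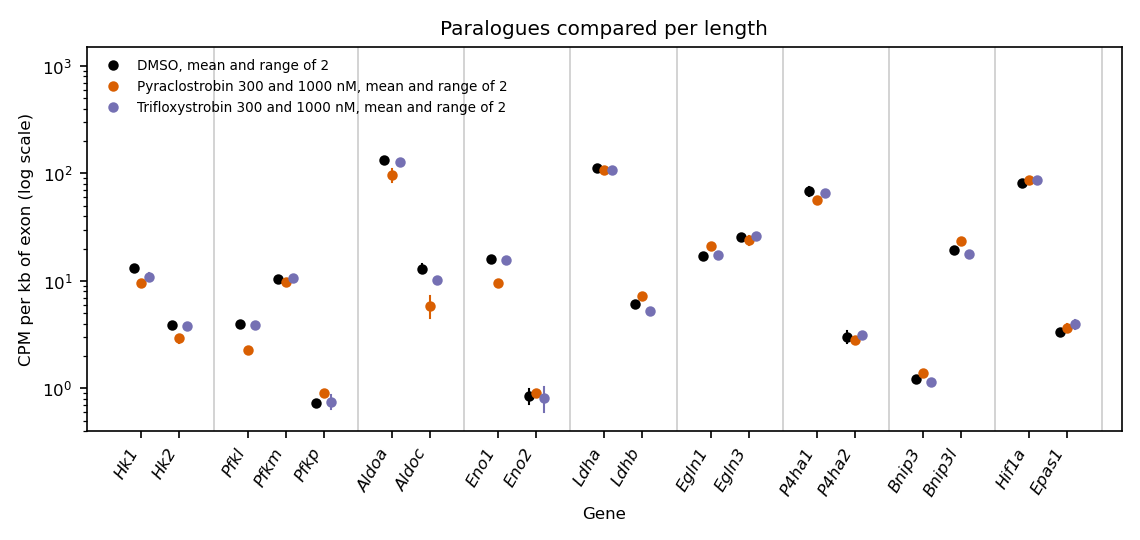
Mean level (points) and range (lines) of paralogues in CPM per kb of exon, on a log scale, in the 2 libraries of DMSO, of upper pyraclostrobin, and of upper trifloxystrobin. Aldoa, Eno1, Ldha, P4ha1, Bnip3l, and Hif1a stand over 10-fold above the other gene of their pair in DMSO, and Aldoc, Pfkl, and Eno1 are lower in pyraclostrobin than in DMSO while Pfkp and Eno2 are not.

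Per kb of exon, which allows levels of different genes to be compared, the highest members in DMSO were Aldoa (132 CPM per kb), Fam162a (124), Ldha (112), and Hif1a (80.6). Ldha exceeded Ldhb (6.03), Hif1a exceeded Epas1 (3.35), and Eno1 (15.96) exceeded the neuronal enolase Eno2 (0.846). Hk1 (13.05) stood above Hk2 (3.88), and the level of Aldoc (13.00) lay within the range of the 2 DMSO libraries for Hk1. This order depends on the length used. Over the longest transcript, the DMSO levels were 248 CPM per kb for Aldoa, 204 for Ldha, 147 for Pkm, 146 for Fam162a, 109 for Tpi1, and 101 for Hif1a, and Hk1 (26.02) stood above Aldoc (15.2). Shares within a family are given with no test, and that of Pfkl rests on a total with Pfkm and Pfkp, whose values are uncertain. Pfkl made up 26.3% and 26.6% of the 3 phosphofructokinases in the DMSO libraries and 17.4% and 17.8% in those of 300 and 1000 nM pyraclostrobin (lower value first), with 24.3% and 26.5% in trifloxystrobin. The share of Aldoc among aldolases was 8.19% and 9.71% in DMSO, 5.11% and 6.16% in upper pyraclostrobin, and 7.23% and 7.56% in upper trifloxystrobin. Hk2 made up 21.8% and 24.1% of the hexokinases in DMSO and 22.7% and 24.2% in upper pyraclostrobin, so that its share overlapped.

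Other genes of the same pathways were called in both directions. Of 20 further glycolysis and pyruvate genes tested, 7 rose and 3 fell at 300 and 1000 nM pyraclostrobin, where 20.2% of all genes rose and 20.1% fell. They include Pgam2, the muscle phosphoglycerate mutase (-1.65, SE 0.31, edgeR adjusted p = 0.000881), Bpgm, which makes bisphosphoglycerate (0.78, SE 0.176, adjusted p = 0.00292), and Pdk2, a pyruvate dehydrogenase kinase (-0.66, SE 0.117, adjusted p = 0.000585). Pdk3 and Pdk4, of the same kinase family, were among those that rose. Of 32 further HIF pathway genes, 5 rose and 12 fell. The largest changes among these were Stc2, a secreted glycoprotein (-1.03, SE 0.309, adjusted p = 0.0158), Car9, carbonic anhydrase IX and a sensitive HIF-1 target (-0.96, SE 0.215, adjusted p = 0.00293), and Plod1, a collagen lysyl hydroxylase (-0.87, SE 0.0889, adjusted p = 1.22e-05). Car9 was at 9.33 and 8.21 CPM in DMSO, 9.27, 9.57, 4.16 and 4.84 CPM in pyraclostrobin, and 12.5, 7.89, 8.25 and 4.69 CPM in picoxystrobin. The values at 300 and 1000 nM pyraclostrobin and at 1000 nM picoxystrobin were the lowest of all libraries. In the comparison with trifloxystrobin at 300 and 1000 nM, 3 glycolysis genes were higher and 3 lower with pyraclostrobin, and 2 HIF pathway genes were higher and 6 lower, where 12.4% of all genes were higher and 12.5% lower.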

How the data were processed

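RNA-seq libraries of C17.2α cells (1 per concentration, 2 for DMSO) were analysed. The authors deposited raw counts per gene, made with htseq-count from single-end reads of a total RNA SENSE library. The submitters' processing notes list Bowtie2 2.3.2.2 and the mm10 build. The annotation and the strand setting are not given in the sources used here. Groups came from the labels. The members and gene lists were chosen with earlier results of these data known.

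Counts were tested with edgeR 4.0.16 in R 4.3.3 (TMM, quasi-likelihood test, mean of 1 CPM or more over 15 distinct libraries, Benjamini-Hochberg adjusted p under 0.05 over 14004 genes). One model had 1 level per compound (9 residual degrees of freedom), with picoxystrobin at 1000 nM apart because the study's figure leaves it out without a reason. The other split compounds into 30 and 100 against 300 and 1000 nM (6 residual degrees of freedom). On simulated counts for pyraclostrobin at 300 and 1000 nM against DMSO (14004 genes), 95% of 2-fold and 78% of 1.5-fold changes were recovered, and 3.89% of calls were false. Only 200 genes were changed in the simulation, with both upper libraries as true replicates, while 40.3% of all genes were called in the data. These rates may thus not hold for the data. Per-library values are CPM with TMM factors. Depth was 12292390 to 18188099 counts.

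Values in every library are given for the 12 members with the largest change at 300 and 1000 nM pyraclostrobin among those called in the 3 pyraclostrobin tests at these concentrations, and for 12 key members whatever their change, in part the same. Alternatives were DESeq2 1.42.0, RLE factors, other filters, all 16 libraries, picoxystrobin at 1000 nM left out or joined, a correction for GC content and length (splines, known for 13929 genes), separate fits, a concentration block, longest transcripts, each library left out, and, chosen after seeing the data, near-identical copies added (BLAST 2.17.0, 200 bases at 95% identity, GENCODE M21). Promoters are from RefSeq. Tables and figures used Python 3.11.15, pandas 2.3.3, and matplotlib 3.10.9.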

Additional observations from a re-analysis of the deposited data

Results flagged for a closer look

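In 3 of 108 groups of 4 libraries, 1 library stood apart from the other 3 by Dixon's criterion, which chance gives in about 1 group of 20. Aldoc was at 23.6 CPM at 1000 nM picoxystrobin, against 35.8 to 37.7 CPM in the other picoxystrobin libraries. Slc16a1 was at 204 CPM at 300 nM trifloxystrobin, with the other trifloxystrobin libraries at 185 to 187 CPM. P4ha2, a collagen prolyl hydroxylase, was at 16.4 CPM at 100 nM picoxystrobin, and at 18.7 to 19.1 CPM in the other picoxystrobin libraries.

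The change from lower to upper concentrations differed between pyraclostrobin and trifloxystrobin, by the test of the difference itself (edgeR), for Aldoc (-0.95 on the log2 scale), Pfkl (-0.84), Eno1 (-0.51), and Kdm3a (-0.35), with adjusted p-values of 0.0344, 0.0148, 0.0109, and 0.0499. For each of them both upper pyraclostrobin libraries were below both lower ones. Trifloxystrobin at 100 nM was the lowest library of that compound for Aldoc and Pfkl (25.8 and 20.5 CPM).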

How the results depend on the processing

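Numbers of called members depended on single libraries and on the treatment of picoxystrobin at 1000 nM. The share of all genes called under each alternative is not given here, so whether these shifts were particular to the members was not tested. Leaving out each library in turn gave 9 to 14 members for pyraclostrobin at 300 and 1000 nM against DMSO, 3 to 9 against its lower concentrations, 3 to 8 against trifloxystrobin, 2 to 8 against picoxystrobin, 0 to 9 for all 4 pyraclostrobin concentrations, 0 to 4 for picoxystrobin at 30 to 300 nM, 1 to 3 for picoxystrobin against trifloxystrobin (8 without picoxystrobin at 1000 nM), 0 to 6 for the difference in upper-to-lower change, and 0 to 1 for trifloxystrobin against its lower concentrations. With picoxystrobin at 1000 nM joined to its compound, 0 members were called for picoxystrobin, 0 for all pyraclostrobin concentrations, 3 for upper against lower pyraclostrobin, 3 for pyraclostrobin against trifloxystrobin, 1 against picoxystrobin, and 0 for the difference in change. With it left out, both picoxystrobin pairs gave 8. Correction for GC content and length left 0 members for picoxystrobin and 0 for all pyraclostrobin concentrations. Each compound alone with DMSO gave 7 for picoxystrobin and 0 for pyraclostrobin. For all pyraclostrobin concentrations DESeq2 gave 3, no filter 5, and all 16 libraries 3, and for picoxystrobin against trifloxystrobin no filter gave 5. The concentration block (libraries paired by concentration over 30 to 1000 nM) gave 0 members in each of the 3 pairs, and samples of different compounds share a concentration only. DMSO libraries carry no concentration, so their comparisons have no such block.

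Signs turned only in log2 fold changes that were not called, for pyraclostrobin at 300 and 1000 nM against DMSO. Slc2a1 was 0.011 with no filter, 0.11 with GC content and length corrected for, and -0.063 to 0.052 with 1 library left out. Bnip3 was -0.064 with GC content corrected for and -0.0053 with copies added. Vhl was 0.012 with no filter and ranged from -0.015 to 0.0042 with 1 library left out, Egln3 from -0.24 to 0.021, and Epas1 from -0.011 to 0.24. Over the longest transcript in place of all exons, the log2 ratio of levels per length was 2.55 for Hk1 to Hk2 (1.67 over all exons), 4.20 for Aldoa to Aldoc, 4.83 for Eno1 to Eno2, and 4.79 for Ldha to Ldhb. Aldoc, Pfkl, Gapdh, Eno1, Kdm3a, Hk1, Slc16a1, and Higd1a were called for pyraclostrobin at 300 and 1000 nM against DMSO under all alternatives run, Hk1 with a log2 fold change of -0.24 and Slc16a1 of 0.23 with GC content and length corrected for, and Gapdh of -0.30 with copies added. Over single genes, 649 alternative values kept direction and side of the threshold, 176 lost the call, 2 gained it, and 10 changed sign. The cause was not tested. Low counts limit Bnip3, Pgam1, and Eno2 most. For Gapdh and Pgam1, near-identical copies averaged more than the gene itself (141 against 9.08 CPM, and 9.85 against 2.95 CPM).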

Other observations

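Genes that respond to glucose phosphates through the MondoA and ChREBP factors were among the genes that fell with pyraclostrobin. Txnip, which restrains glucose uptake, was at 128 and 138 CPM in DMSO, 111, 74.6, 56.2 and 61.4 CPM at 30, 100, 300 and 1000 nM pyraclostrobin, 73.2, 129, 102 and 59.3 CPM in trifloxystrobin, 143, 143, 102 and 66.2 CPM in picoxystrobin, and 116 CPM in azoxystrobin. Its level fell by 1.18 on the log2 scale at 300 and 1000 nM pyraclostrobin (SE 0.246, edgeR adjusted p = 0.00183), and the libraries at 1000 nM of all 3 compounds tested at 4 concentrations were between 59.3 and 66.2 CPM. Arrdc4, an arrestin-like relative of Txnip under the same control, was at 11.8 and 12.96 CPM in DMSO, 6.28, 3.598, 3.34 and 3.08 CPM in pyraclostrobin, 6.03, 9.27, 6.76 and 3.18 CPM in trifloxystrobin, 11.2, 9.78, 6.397 and 3.17 CPM in picoxystrobin, and 11.3 CPM in azoxystrobin. Arrdc4 fell by 1.95 at 300 and 1000 nM pyraclostrobin (SE 0.295, adjusted p = 0.000181), and its libraries at 1000 nM of picoxystrobin, pyraclostrobin, and trifloxystrobin lay between 3.08 and 3.18 CPM.

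Both genes were also low at 1000 nM trifloxystrobin. At 300 and 1000 nM that compound was not called for either (Txnip -0.72, adjusted p = 0.447, and Arrdc4 -1.31, adjusted p = 0.34), and the test of pyraclostrobin against it was not passed (adjusted p = 0.238 and 0.219). Mlxip, which encodes MondoA, fell by 0.66 at 300 and 1000 nM pyraclostrobin (SE 0.0904, adjusted p = 9.64e-05), and Mlx, its partner, was not called. Thus 3 of the 4 genes tested in this list fell, against 20.1% of all genes, among them Mlxip, which encodes a factor and was not listed as a responding gene. The list was drawn up with earlier results of these data known, so this share may not be independent of them.

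Some members, chosen after their values were seen, differed between the DMSO libraries. The first DMSO library was lower than the second for 21 of 36 members. The share of all genes lower in it was not counted, so whether this was particular to the members was not tested. The largest gaps in either direction, first minus second, were those of Pdk1 (-0.50 on the log2 scale), Pgam1 (0.49), Eno2 (-0.46), and P4ha2 (-0.36). In addition, trifloxystrobin at 100 nM had the lowest value of that compound for Pdk1, Vegfa, Ndrg1, and P4ha2.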
